A study of Bos taurus with 8 samples.

Results

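NF-κB is a family of dimeric transcription factors, and 10 genes of its core machinery were followed here in the rumen papillae of dairy cows. They were the factor subunits RELA, NFKB1 and NFKB2, the kinase subunits CHUK and IKBKB, and the adaptor TRAF6. The others were the inhibitors NFKBIA and TNFAIP3, the regulator NFKBIZ, and the adhesion molecule ICAM1 as a target. A gene counted as measured if a probe carried a RefSeq accession that the bovine gene table pairs with its symbol. This held for 8 of the 10 genes, each with 1 probe printed as 2 spots, out of 7788 genes named on the array in the same way. NFKB1 and TRAF6 had no such probe and have no value here.

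In resting cells NF-κB dimers are held in the cytoplasm by inhibitors such as IκBα, the product of NFKBIA. Signals from Toll-like receptors or from the cytokines IL-1 and TNF reach the IκB kinase, which marks the inhibitor for degradation and frees the dimer to enter the nucleus. The dimer then induces cytokines, chemokines and adhesion molecules together with its own inhibitors, NFKBIA and TNFAIP3 among them, so that the response limits itself. In the rumen, whose wall is lined by a stratified squamous epithelium, the pathway is of interest because bacterial endotoxin and acid accumulate when cows eat much starch. Much of the control of the pathway acts on proteins, which these arrays do not measure.

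The RNA came from the papillae of 4 female, ruminally cannulated Holstein cows, which averaged 460 kg and 84 days in milk at the start and had all been on a low-concentrate ration beforehand. Each cow received the low-concentrate diet (LC, 40% concentrate of dry matter) in 1 period and the high-concentrate diet (HC, 70%) in the other, with cows 1 and 2 on LC first and cows 3 and 4 on HC first. Papillae were cut from the ventral sac of the rumen on day 21 of a period, 4 h after the morning feeding, and every sample went onto an array of its own with a single dye, which gave 4 arrays in the LC group and 4 in the HC group. The 2 slides each held the arrays of 1 period, so period and slide cannot be told apart.

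The median spot intensity was 92.1 to 132 in the LC group and 100.8 to 123 in the HC group, between 76.9 and 81.2% of the 21475 probes stood well above background on an array, and no spot was saturated. All values below are quantile-normalized log2 intensities, and a log2 fold change is the HC mean minus the LC mean. The probes of all 8 measured genes were well above background on all 8 arrays. The tissue label was set against marker genes: KRT14, KRT6A, DSP, DSG1 and DSG3 of stratified epithelium were well above background on all 8 arrays. TP63, a factor of basal epithelial cells, was so on 0 arrays. Its probe read only 0.07 to 0.15 (log2), and whether it detects its transcript was not tested, so this does not show that TP63 RNA was absent. Papillae also hold vessels, connective tissue and leukocytes, and in such bulk RNA fewer cells of a type and less RNA per cell cannot be told apart.

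With limma fitted to all 21475 probes, 0 of the 8 genes passed for diet, that is, reached both a 1.5-fold difference and an unadjusted p under 0.05. Of all probes, 0.922% passed, so a count of 0 among 8 is near the background. At the unadjusted p alone 0 of 8 passed, against 3.65% of all probes, and both thresholds together were also passed by 0 of 8 in a linear model without moderated variances and in the deposited normalized table. In that linear model, whose terms are those of the study, RELA had an unadjusted p of 0.0384. The adjusted p was 0.9995 for each of the 8 genes, and no probe on the array had an adjusted p under 0.4125. The HC mean was the higher one for 6 genes and the lower one for 2, with a median log2 fold change of 0.07, beside a median of -0.00 over all probes. In all 8 genes the values of the LC and HC groups overlapped, whereas the groups did not overlap for 1.63% of the 16030 probes that were well above background on every array.

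**Figure D1:**
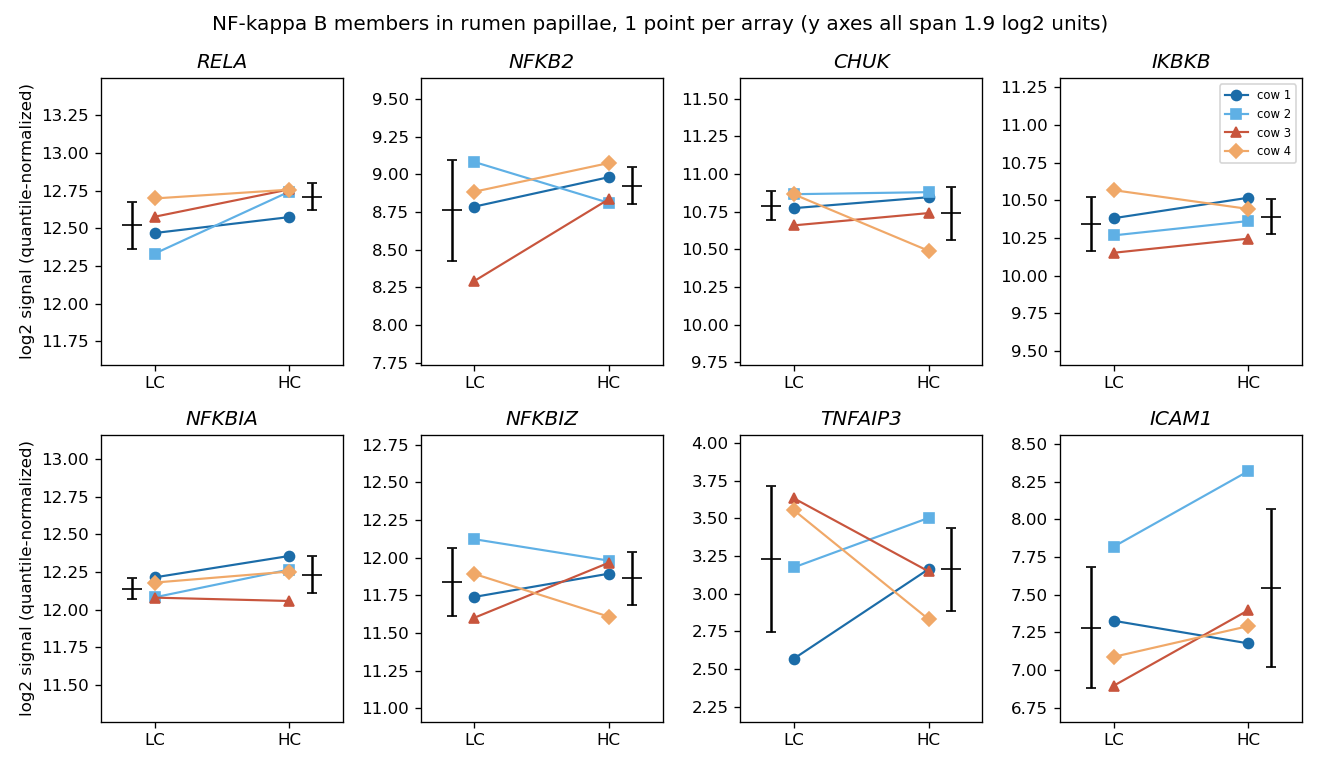
Quantile-normalized log2 signal of the 8 measured genes on each array, with LC on the left and HC on the right of each panel; lines join the arrays of a cow and black bars give the mean ± SD of 4 arrays. The groups overlap in every panel, and RELA alone is higher on HC in all 4 cows.

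Of the factor subunits, RELA encodes p65, the subunit with the transactivation domain in the classical dimer. RELA (RefSeq NM_001080242) had log2 signals of 12.47, 12.33, 12.58 and 12.70 in cows 1 to 4 on LC, and of 12.57, 12.74, 12.76 and 12.76 on HC. Cows 2, 3 and 4 on HC lay above every LC array, and cow 1 on HC lay within the LC range. The means of 4 arrays were 12.52 ± 0.16 (SD) on LC and 12.71 ± 0.09 (SD) on HC, and all 4 cows had the higher value on HC, the differences being 0.06 to 0.41. Such a rise in every cow was seen for 6.46% of the 16030 probes well above background. The diets differed by a log2 fold change of 0.19 (standard error 0.09, 95% interval -0.03 to 0.41), or 1.14-fold, with an unadjusted limma p of 0.0837 and an exact two-sided permutation p of 0.0857, where 4 arrays against 4 can give no p under 0.0286. Within period 1 the difference was 0.36 and within period 2 it was 0.02, and the interaction of diet and period did not pass (limma, adjusted p = 0.585).

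NFKB2 encodes p100, the precursor of p52, which serves the alternative branch of the pathway and, uncleaved, acts as an inhibitor. NFKB2 (NM_001102101) had log2 signals of 8.79, 9.08, 8.29 and 8.89 in cows 1 to 4 on LC, and of 8.98, 8.81, 8.84 and 9.08 on HC. The lowest value was that of cow 3 on LC, and the highest LC value, of cow 2, was level with the highest HC value, of cow 4. The means were 8.76 ± 0.34 and 8.93 ± 0.13 (SD, n = 4 each), and 3 of 4 cows had the higher value on HC. The log2 fold change of 0.16 (standard error 0.16, 95% interval -0.23 to 0.56) was within the spread between arrays (limma p = 0.354, exact permutation p = 0.514).

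The kinase that releases NF-κB has the catalytic subunits IKKα, from CHUK, and IKKβ, from IKBKB. CHUK (NM_174021) had log2 signals of 10.77, 10.87, 10.66 and 10.86 in cows 1 to 4 on LC, and of 10.85, 10.88, 10.74 and 10.49 on HC. Cow 4 on HC had the lowest value, and the other HC arrays lay within 0.08 above their own LC array. The log2 fold change was -0.05 (standard error 0.10, 95% interval -0.30 to 0.20, limma p = 0.632, exact permutation p = 0.629), with differences of -0.20 within period 1 and 0.10 within period 2, and it was 0.01 without cow 4 on HC. IKBKB (NM_174353) had log2 signals of 10.38, 10.27, 10.15 and 10.57 on LC and of 10.52, 10.36, 10.25 and 10.44 on HC. Here too cow 4 was the one cow with the lower value on HC, by 0.12, and the HC range lay inside the LC range. The log2 fold change of IKBKB was 0.05 (standard error 0.13, 95% interval -0.26 to 0.36, limma p = 0.705, exact permutation p = 0.686), and without cow 3 on LC it was -0.05.

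Of the inhibitors, NFKBIA is a direct NF-κB target whose product returns the dimer to the cytoplasm. NFKBIA (NM_001045868) had log2 signals of 12.21, 12.08, 12.08 and 12.18 in cows 1 to 4 on LC, and of 12.36, 12.27, 12.06 and 12.25 on HC. Cows 1, 2 and 4 on HC lay above all LC arrays, and cow 3 on HC had the lowest value of all. All 8 values lay within a 1.23-fold range, and 9.93% of the 16030 probes well above background had a smaller SD over the arrays. The means were 12.14 ± 0.07 and 12.23 ± 0.13 (SD, n = 4 each), and the log2 fold change was 0.09 (standard error 0.09, 95% interval -0.13 to 0.32), with a limma p of 0.355 and an exact permutation p of 0.200.

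NFKBIZ encodes IκBζ, a nuclear IκB protein that is itself induced by Toll-like receptor and IL-1 signals and modulates a later set of target genes. NFKBIZ (NM_174726) had log2 signals of 11.74, 12.12, 11.60 and 11.89 in cows 1 to 4 on LC, and of 11.89, 11.98, 11.97 and 11.61 on HC. The HC range lay inside the LC range, and 2 cows were higher and 2 lower on HC, by -0.28 to 0.37. The log2 fold change was 0.02 (standard error 0.14, 95% interval -0.33 to 0.37, limma p = 0.876, exact permutation p = 0.829), and it fell to -0.07 without cow 1 on LC, -0.05 without cow 3 on LC and -0.07 without cow 3 on HC.

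TNFAIP3 encodes A20, a ubiquitin-editing enzyme that shuts off signals upstream of the IκB kinase. TNFAIP3 (NM_001192170) had log2 signals of 2.57, 3.18, 3.63 and 3.55 in cows 1 to 4 on LC, and of 3.16, 3.50, 3.15 and 2.83 on HC. It was a dim probe, and its values lay 0.42 to 1.21 log2 units above the lowest signal that was well above background on the same array. The signal was higher on HC in cows 1 and 2, by 0.59 and 0.33, and lower in cows 3 and 4, with differences of -0.48 and -0.72. The means were 3.23 ± 0.49 and 3.16 ± 0.27 (SD, n = 4 each), with a log2 fold change of -0.07 (standard error 0.17, 95% interval -0.49 to 0.35, limma p = 0.691, exact permutation p = 0.771). This value was 0.08 without cow 2 on LC and 0.01 without cow 1 or without cow 4 on HC.

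ICAM1, the endothelial and epithelial ligand of leukocyte integrins, is a classical target of RELA. ICAM1 (NM_174348) had log2 signals of 7.33, 7.82, 6.90 and 7.09 in cows 1 to 4 on LC, and of 7.18, 8.32, 7.40 and 7.29 on HC. Cow 2, by the name of its scanner file, had the highest value on each diet, with a mean of 8.07 against 7.15 to 7.25 in the other cows, and cow 1 alone was lower on HC. The means were 7.28 ± 0.40 and 7.55 ± 0.52 (SD, n = 4 each), and the log2 fold change was 0.26 (standard error 0.26, 95% interval -0.38 to 0.90), a 1.20-fold difference with a limma p of 0.355 and an exact permutation p of 0.486. Single arrays moved this value: it was 0.55, with an unadjusted limma p under 0.05, without cow 1 on HC and -0.02 without cow 2 on HC. Within period 1 the difference was -0.23, and within period 2, where HC held cow 2, it was 0.76.

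The intervals state how large a diet difference these 8 arrays leave possible in a fit that counts the arrays of a cow as independent. For 7 of the 8 genes the 95% interval of the fold change lay within 1.5-fold in either direction, against 79.0% of the 16030 probes. ICAM1 was the exception, with an interval from a 0.771-fold to a 1.87-fold level on HC. With cow and period fitted, 7 of the 8 intervals again lay within 1.5-fold, and that of ICAM1 was -0.13 to 0.65 (log2). The count of 7 depends on the fit, since it was 5 without moderated variances, and a p above the threshold does not show that the diets gave equal levels. Of 22 alternatives, the interval lay within 1.5-fold in 15 for TNFAIP3 and in 14 for NFKB2. The TNFAIP3 probe was dim, so its interval is a weak bound.

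**Figure D2:**
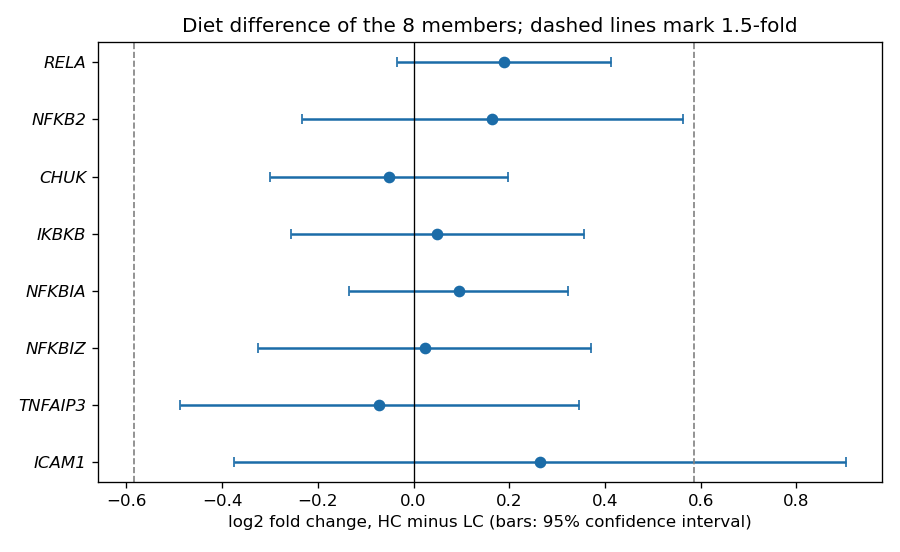
Log2 fold change, HC minus LC, of the 8 genes (points) with the 95% confidence interval from limma (bars); dashed lines mark 1.5-fold in either direction. Every interval crosses 0, and the interval of ICAM1 alone reaches past 1.5-fold.

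The genes differed in how much they varied over the arrays. Over the 8 arrays the SD was 0.11 for NFKBIA, 0.13 for CHUK, 0.14 for IKBKB, 0.16 for RELA, 0.19 for NFKBIZ, 0.25 for NFKB2, 0.37 for TNFAIP3 and 0.45 for ICAM1 (log2). The median of these was 0.17, beside 0.20 over the 16030 probes well above background. Between the lowest and the highest array TNFAIP3 spanned 2.09-fold and ICAM1 2.68-fold. The 2 spots of a probe on the same array differed by a median of 0.04 for CHUK to 0.18 for ICAM1, and by 0.37 at most.

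Among the 28 pairs of these genes, the Pearson r over the 8 arrays was positive in 19, with a median of 0.16, and it ran from -0.46 for NFKB2 with TNFAIP3 to 0.79 for NFKBIZ with CHUK. NFKBIA and IKBKB had an r of 0.74, and RELA and NFKBIA had 0.20. These are descriptions without a test, because the 8 arrays came from 4 cows and share their normalization.

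Every cow changed diet between the periods. A difference between periods is therefore the same contrast as a difference in HC minus LC between cows 1 and 2 and cows 3 and 4. For period, 0 of 8 genes passed both thresholds, against 3.86% of all probes. TNFAIP3 was the 1 gene with an unadjusted p under 0.05, which 12.3% of all probes had. Its mean rose from 2.93 in period 1 to 3.46 in period 2, a log2 difference of 0.53 (standard error 0.17, 95% interval 0.12 to 0.95), with an unadjusted limma p of 0.0201 and an adjusted p of 0.293. It was higher in period 2 in 4 of 4 cows, and the exact permutation p over arrays was 0.0571. The size of this difference depended on the processing: it was 0.30 with scaling to the 75th percentile (limma, adjusted p = 0.477) and 0.07 with normexp background correction (limma, adjusted p = 0.580). The detection floor, the dimmest signal well above background on an array, moved the same way, from 2.02 to 2.38 over the arrays of period 1 and from 2.30 to 2.77 over those of period 2 (log2). The arrays with the lowest and highest TNFAIP3 signal, cow 1 and cow 3 on LC, also had the lowest and the highest floor, and its part in the result was not tested. Both thresholds were passed without cow 2 on LC (0.68), cow 1 on HC (0.62) or cow 3 on HC (0.61). The other 7 genes had period differences from -0.20 for NFKB2 to 0.09 for CHUK.

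**Figure D3:**
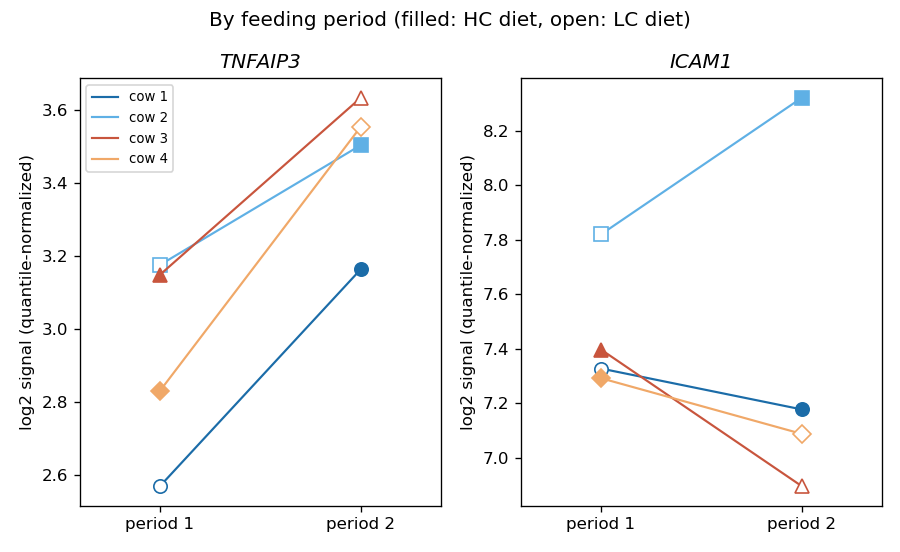
Log2 signal of TNFAIP3 and ICAM1 by feeding period, with a line for each cow; filled symbols are HC arrays and open symbols LC arrays. TNFAIP3 is higher in period 2 in all 4 cows, and cow 2 lies above the other cows for ICAM1 in both periods.

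The interaction term, the diet difference in period 2 minus that in period 1, amounts to a contrast of the signal levels of cows 1 and 2 with those of cows 3 and 4. For it 0 of 8 genes passed both thresholds, against 8.58% of all probes, and 0 of 8 had an unadjusted p under 0.05, against 10.2%. ICAM1 had the largest value of the 8, 0.99 (standard error 0.53; limma, adjusted p = 0.576), and it was 1.56 and past both thresholds without cow 1 on HC and 0.41 without cow 2 on HC. Arrays of one cow count as independent in this fit, and with the cow means fitted instead the adjusted p was 0.827 (limma).

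Other genes of the pathway were counted in the same way. A list of 63 further kinases, adaptors, IκB proteins and ubiquitin enzymes had 32 on the array, and for 30 of them every array was well above background. Of the 32, 0 passed both thresholds for diet, against 0.922% of all probes, and NOD2 alone had an unadjusted p under 0.05, against 3.65%, so both counts are near the background. NOD2, the intracellular sensor of bacterial muramyl dipeptide, had log2 signals of 8.01, 7.86, 7.88 and 7.89 in cows 1 to 4 on LC, and of 8.25, 8.31, 7.98 and 8.24 on HC. All cows were higher on HC, by 0.09 to 0.45, and cow 3 on HC was the one HC array inside the LC range. HC exceeded LC by 0.28 (standard error 0.10) on the log2 scale, or 1.22-fold, with a limma p of 0.0289, an adjusted p of 0.9995 and an exact permutation p of 0.0571. Of the 30 genes, 20 were higher and 10 lower on HC, with a median log2 fold change of 0.06 and a range from -0.40 for TICAM1, a Toll-like receptor adaptor (limma p = 0.196, exact permutation p = 0.200), to that of NOD2. Without cow 3 on HC, TICAM1 passed both thresholds, with a log2 fold change of -0.71. MAP3K14, the kinase of the alternative branch, had 0.26 (limma p = 0.152, exact permutation p = 0.143). It was higher on HC in every cow, as were 6.46% of the 16030 probes well above background. Its probe was dim, with mean log2 signals of 3.46 on LC and 3.72 on HC. TAB2, TAB3, IRAK3, FADD, TBK1 and ITCH were likewise higher on HC in every cow, and SIGIRR was lower in every cow. With cow and period fitted, the unadjusted limma p was 0.0420 for NOD2 and 0.0383 for IRAK3.

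Receptors and their accessory proteins stood upstream, with 9 of 16 listed genes on the array and 8 of these well above background on all arrays. For diet 0 of the 9 passed both thresholds, and TLR4 alone had an unadjusted p under 0.05, which 3.65% of all probes had. TLR4, the receptor for bacterial endotoxin, had a mean log2 signal of 8.11 ± 0.20 on LC and 8.49 ± 0.31 on HC (SD, n = 4 each). The log2 fold change of TLR4 was 0.38 (standard error 0.14, limma p = 0.0313, adjusted p = 0.9995, exact permutation p = 0.0857), and it was higher on HC in cows 1, 2 and 3, by 0.40 to 0.77, and lower in cow 4, with a difference of -0.23. CD14 and LBP, which carry endotoxin to TLR4, had log2 fold changes of 0.31 and 0.19, with limma p values of 0.227 and 0.431 and exact permutation p values of 0.314 and 0.429. The value of LBP was -0.0029 without cow 1 on LC. The median of the 8 receptor genes was 0.06.

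Among 58 listed ligands and target genes of NF-κB, 43 were on the array, and for 33 of them every array was well above background. Of the 43, 3 passed both thresholds, against 0.922% of all probes, and all of these were higher on HC, namely the chemokines CCL22 and CXCL5 and the cytokine IL1B. The study had already picked IL1B and CXCL5 (under the name CXCL6) from these arrays, so the count is not independent evidence of a direction. It had also picked CCL19 as higher and IL6 as lower on HC, and neither passed here. CCL19 had a log2 fold change of 0.84 (exact permutation p = 0.343). IL6 had -0.25 (exact permutation p = 0.714), and its probe was well above background on 0 arrays. CCL22, which attracts T cells, had log2 signals of 5.27, 5.30, 4.85 and 5.67 in cows 1 to 4 on LC, and of 7.22, 6.48, 5.65 and 5.62 on HC. Cows 1 and 2 rose far above all LC arrays, by 1.94 and 1.18, while cow 4 had a difference of -0.05. On average HC exceeded LC by 0.97 (standard error 0.23) on the log2 scale, or 1.96-fold, with a limma p of 0.00547, an adjusted p of 0.9995 and an exact permutation p of 0.0857. CXCL5, a neutrophil attractant, stood 0.68 (standard error 0.18) higher on HC on this scale, with an exact permutation p of 0.200. Only cows 1 and 2, which received HC in period 2, had more CXCL5 signal on HC. Cows 3 and 4, which received HC in period 1, had differences of -0.31 and -0.30. CXCL5 was thus higher in period 2 in every cow, by 0.99 on average, a larger difference than that for diet. CCL22 and IL1B were also higher in period 2 on average, by 0.59 and 0.60. Diet and period are separate terms of the fit. IL1B, a cytokine that both activates NF-κB and is induced by it, stood 0.67 (standard error 0.22) higher on HC, with an exact permutation p of 0.314, and cow 4 went the other way. Within cows 1 to 4 the differences of IL1B were 1.31, 1.22, 0.58 and -0.44. Its diet difference was -0.51 within period 1 and 1.84 within period 2 (interaction, limma, adjusted p = 0.290). A difference within a period compares different cows, so these values do not show a turned diet response. CCL22 and CXCL5 were higher on HC within each period, by 0.35 and 1.59 for CCL22 and by 0.36 and 1.00 for CXCL5.

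The calls of the ligands and targets depended on single arrays and on the background correction. CCL22 passed as each array was left out, with values from 0.77 to 1.17. CXCL5 failed to pass without cow 3 on LC (0.57), without cow 1 on HC (0.55) and without cow 4 on HC (0.57). IL1B failed without cow 1 (0.55) or cow 3 (0.62) on LC and without cow 2 (0.58) or cow 3 (0.46) on HC. With normexp background correction 0 of the 43 passed, with log2 fold changes of 0.41 for CCL22, 0.33 for CXCL5 and 0.23 for IL1B. Of the 33 genes well above background, 25 were higher and 8 lower on HC, and their median log2 fold change was 0.20, beside 0.07 for the 8 core genes.

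**Figure D4:**
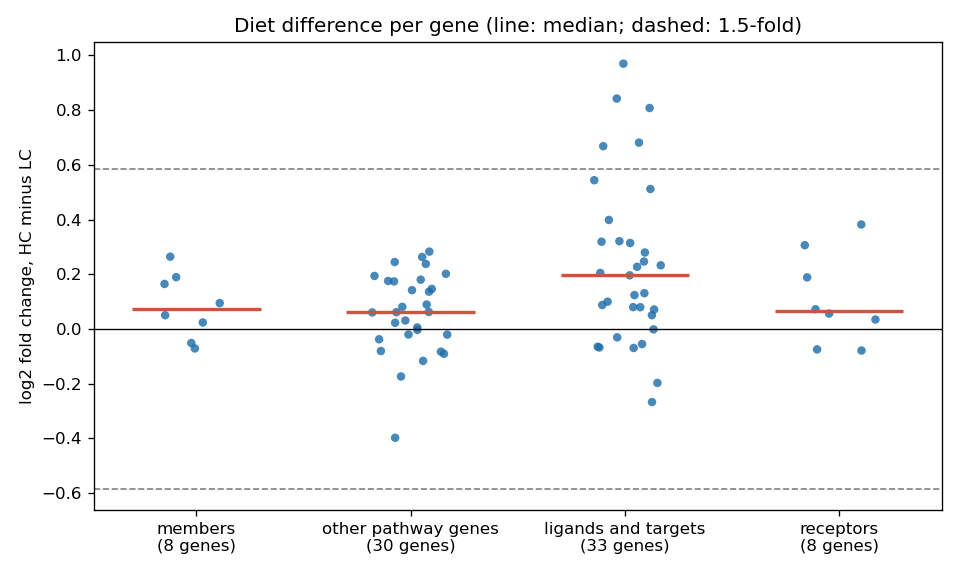
Log2 fold change, HC minus LC, of each gene well above background on all 8 arrays (points): the 8 core genes, 30 other pathway genes, 33 ligands and targets and 8 receptor genes; coloured lines are medians and dashed lines mark 1.5-fold. The core and pathway genes lie within 1.5-fold, and the points past 1.5-fold are higher on HC and belong to the ligands and targets.

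Markers of other cell types were measured beside these results. Of the 6 leukocyte markers well above background on all arrays (7 of 13 on the array), 5 were higher on HC and 0 passed, with CORO1A at 0.46 (limma p = 0.0628, exact permutation p = 0.0571) and CD3E at 0.30 (limma p = 0.0759, exact permutation p = 0.257), and ITGAM was well above background on 0 arrays. CD68 was at 0.14. In cows 1 to 4, CD3E differed by 1.13, 0.47, 0.02 and -0.42, and CORO1A by 0.87, 0.41, 0.54 and 0.03. CCL22 differed by 1.94, 1.18, 0.80 and -0.05. The leukocyte markers did not share one order: CD2 differed by 0.10, -0.12, 0.16 and 0.06, and CD79A by -0.20, -0.06, -0.19 and 0.17. CD68 differed by 0.48, 0.14, 0.48 and -0.55, and ITGB2 by 0.40, -0.0007, 0.13 and -0.11. The summed signal of the 6 leukocyte markers was 10.74 to 11.10 (log2) in the LC group and 10.92 to 11.08 in the HC group. The summed signal of 4 endothelial markers was 9.69 to 9.99 on LC and 9.80 to 10.37 on HC, and all 4 were higher on HC, with 0 passing. The endothelial markers with the largest differences were ESAM (0.19), CLDN5 (0.10) and TEK (0.07). The lists for epithelium, fibroblasts, smooth muscle and blood also had 0 genes past both thresholds. DSG1, a desmosomal cadherin of differentiated epithelium, differed by -0.64 (standard error 0.83, limma p = 0.471, exact permutation p = 0.629), which is past 1.5-fold but within the spread between arrays. Its differences in cows 1 to 4 were -2.57, -0.89, 0.26 and 0.66. KRT14 (-0.36, -0.13, 0.03 and 0.11) and DSP (-0.28, -0.07, 0.01 and 0.19) had the same order. KRT6A (-0.12, -0.05, 0.34 and -0.01) and DSG3 (0.11, 0.39, -0.29 and 0.21) did not. The log2 fold change was 0.11 for DSG3 and -0.09 for KRT14. Fibroblast markers lay at 0.30 for COL3A1, 0.15 for COL1A2 and -0.20 for DCN, smooth muscle markers at 0.13 for CNN1, 0.06 for TAGLN and 0.04 for DES, and the globins at 0.05 for HBB and -0.34 for HBA. The part of these cells in the levels of ICAM1, TLR4 and the ligands and targets was not tested.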

How the data were processed

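The deposited scanner output (Agilent Feature Extraction 10.7.3.1) gives a background-subtracted intensity per spot, which the authors had not normalized between arrays, and a second deposited table, used as an alternative, holds their quantile-normalized log2 values. After control spots and up to 13 outlier spots per array were dropped, log2 intensities were quantile-normalized (limma 3.58.1, R 4.3.3) and averaged over the spots of each probe. A probe was well above background where most of its spots were so by the software's own test. Of 10176 probes with a RefSeq accession, 8297 were named through the reference gene table (ARS-UCD2.0), and the brightest probe of a gene was used. Positions are not given, because the array was designed on another build.

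Diet, period and their interaction, the terms of the study's model, were fitted to all 21475 probes (4 residual and 2.26 prior degrees of freedom, prior SD 0.182), with Benjamini-Hochberg adjustment over all probes. Exact two-sided permutation tests used scipy 1.17.1 (Python 3.11.15, pandas 2.3.3, numpy 2.4.6), and plots matplotlib 3.10.9. Neither this main fit nor the permutation tests used the pairing by cow. The fit was tested on simulated data with known diet changes. The simulated arrays were drawn independently, without cow or period effects, so that test does not cover arrays that share a cow. All members were named, and of each list the genes past both thresholds, then those with an unadjusted p under 0.05, then the largest differences up to 3 genes. The members and lists were chosen with earlier results of these data known.

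Samples were paired by the cow in their labels, with cows named as for the scanner files. In the deposited table, the 4 columns named for cows 1 and 2 matched the scanner array of the other cow on the same diet better (r = 0.999) than that of their own name (0.994 to 0.995), so values of cows 1 and 2 may be exchanged, which leaves the diet comparison and the pairing as they are. Over 16030 probes, the deviations of a cow's LC and HC arrays from their group means had an r of 0.285, 0.298, 0.467 and 0.113 in cows 1 to 4, against -0.237 to 0.185 between different cows. limma's consensus correlation was 0.384. Alternatives changed the scaling, the background correction (normexp on the median spot and background signals), the filter, the model terms, the moderation and the block by cow, or left out each array. Precision is limited by the number of arrays.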

Additional observations from a re-analysis of the deposited data

Results flagged for a closer look

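RELA had a lowest HC array that stood apart from the others. Cow 1 on HC was at 12.57, and the nearest HC value was 12.74, a gap of 0.918 of the group's whole range, above Dixon's 95% critical value for 4 samples. Chance flags about 1 in 20 groups, and 16 groups of 4 arrays were looked at. Without this array the log2 fold change of RELA was 0.23 and did not pass.

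The HC minus LC difference of TNFAIP3 had opposite signs in the 2 feeding sequences, which restates its period difference. The within-cow HC minus LC difference averaged 0.46 in cows 1 and 2, which went from LC to HC, and -0.60 in cows 3 and 4, which went from HC to LC. These means differed by 1.06, and the test of that difference is the period term of the fit (limma, adjusted p = 0.293). Period, slide and feeding sequence cannot be told apart here, and the probe was close to the lowest signal above background.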

How the results depend on the processing

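No array or setting gave a call for diet among the 8 genes, in 22 alternatives each. The unadjusted p fell under 0.05 in 3 of them for RELA and in 1 for ICAM1. For RELA the limma p was 0.0322 with normexp and 0.0439 with an intensity trend, and the linear model without moderated variances gave a p of 0.0384. With cow as a replicate block and period as a term, the p was 0.120 for RELA and 0.137 for ICAM1, and the block changed no call among the 8 genes. For IL1B, which had passed, the p was 0.0859 with the block without period, and for CXCL5 it was 0.189. When period was kept beside the block, the unadjusted limma p was 0.0217 for IL1B, 0.00564 for CXCL5 and 0.00787 for CCL22. Within period 1 and period 2, the diet difference was 0.36 and 0.021 for RELA, -0.20 and 0.10 for CHUK, and -0.23 and 0.76 for ICAM1. IKBKB turned to -0.01 with normexp. As each array was left out, the diet difference ranged from 0.15 to 0.23 for RELA, 0.02 to 0.31 for NFKB2, -0.11 to 0.011 for CHUK, -0.054 to 0.15 for IKBKB, 0.05 to 0.14 for NFKBIA, -0.072 to 0.12 for NFKBIZ, -0.22 to 0.08 for TNFAIP3, -0.022 to 0.55 for ICAM1 and -0.0029 to 0.38 for LBP. The period difference then ranged from -0.11 to 0.078 for NFKBIZ, -0.0385 to 0.17 for IKBKB, -0.37 to 0.20 for ICAM1 and 0.38 to 0.68 for TNFAIP3, and the interaction from -0.0105 to 0.58 for NFKB2, -0.15 to 0.27 for IKBKB and 0.41 to 1.56 for ICAM1. The 198 of all probes that passed for diet became 8 with normexp, 415 with the deposited table, 75 with a filter on dim probes, 105 without moderation and 239 to 404 as arrays were left out. The 3 ligands and targets became 4 with 75th percentile scaling, with the deposited table, and with cow and period fitted. With cow and period fitted, the gene added was CCL19, with a log2 fold change of 0.84. It had not passed in the main fit, and its exact permutation p, without the pairing by cow, was 0.343. The count became 0 with normexp, and it was 1 to 7 as arrays were left out. It was 1 without cow 3 on LC, 7 without cow 4 on LC and 5 without cow 2 on HC. The counts for the other pathway genes, leukocyte markers and blood markers were then 0 to 1, with 1 pathway gene without cow 3 on HC, 1 leukocyte marker without cow 4 on LC or cow 2 on HC, and 1 blood marker without cow 2 on HC. The number of genes with an interval within 1.5-fold was 5 to 8 over the settings. The cause of these shifts was not tested. A table that joined the deposited values, the block by cow and no moderation was chosen after seeing the data, and it gave no call among the 8 genes. Signal over background limits TNFAIP3 most.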

Other observations

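The genes whose signals over the 8 arrays were most like those of each core gene were looked up among 6468 genes well above background on all arrays, as a description without a test. RELA was most like EIF5 (Pearson r = 0.92) and NFKB2 most like TBP (0.95), which encode general translation and transcription factors. NFKBIA was most like SPIN2 (0.96), NFKBIZ like PRRG2 (0.97), IKBKB like RANBP2 (0.98) and CHUK like CSE1L (0.94). TNFAIP3 was most like PPP2CA (0.96) and ICAM1 like ARPIN (0.96). None of these genes is on the lists of pathway genes, receptors or targets. The 8 arrays came from 4 cows and share their normalization.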
